A study of Mus musculus with 4 samples.

Results

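The mitosis and spindle genes are 41 genes that carry out cell division: the mitotic cyclins and their kinase, the other mitotic kinases, the spindle checkpoint, the kinetochore, spindle kinesins and the cytokinesis machinery. They were named as a list, with earlier results of these data known. All probe sets annotated to exactly 1 of the 41 symbols were taken. This gave 86 of the 45037 probe sets that are not the manufacturer's controls. These belong to 40 of the 41 genes, out of 18193 genes with such a probe set in the whole series. Ccnb1, which encodes cyclin B1, had no probe set with a single symbol and was not analysed here.

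The 4 arrays were 1 each of dendritic cells (DCs) grown from the bone marrow of C57/BL6 mice. The groups were LXR-DKO cells with LPS for 24 h, LXR-DKO cells without LPS as their control, WT cells with LPS for 24 h, and WT cells without LPS as their control. LXR-DKO mice lack both LXRα and LXRβ, the liver X receptors, nuclear receptors that respond to oxysterols, and WT mice carry both. Marrow cells of both genotypes were first kept for 6 to 7 days with GM-CSF at 20 ng/mL, the growth factor that drives DC formation in culture, and enriched with beads for CD11c, a DC integrin. All 4 cultures then had GM-CSF at 10 ng/mL, and the LPS cultures also had lipopolysaccharide, a bacterial Toll-like receptor 4 ligand and the maturation stimulus, at 100 ng/mL. The labels do not say how many mice gave each culture. Each group has 1 array, so differences could not be set against a spread between replicates, and no test was run. The small number of arrays sets the precision of every value.

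Mitosis is driven by cyclin-dependent kinase 1 bound to its cyclins. The spindle checkpoint then holds back the anaphase-promoting complex until each kinetochore is attached to spindle microtubules, and that complex marks the cyclins for destruction. Transcripts of this machinery are made mostly in late S phase, G2 and mitosis and are repressed in resting cells, so their summed level follows the share of dividing cells. Marrow cultures grown with GM-CSF hold dividing precursors, while mature DCs divide little. In RNA from a whole culture, fewer dividing cells and less RNA per dividing cell cannot be told apart.

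Promoters of mitotic genes are known for a short element, the cell cycle genes homology region (CHR), bound by the repressive DREAM complex in resting cells and by its MuvB core with B-MYB or FOXM1 in dividing cells, and for CCAAT boxes bound by NF-Y. The 3 members with the lowest LPS over control ratio in WT cells among those with all 4 signals at or above the floor, defined below, are shown from RefSeq, assembly GRCm38.p6, as 250 bases before and 50 bases after the annotated start, read 5′ to 3′ on the gene's strand. Capitals mark matches on either strand to TTTGAA or TTCGAA (CHR) and to CCAAT (read as ATTGG on the other strand). The Nuf2 window lies at chr1:169531415-169531714 on the minus strand, the Cdca3 window at chr6:124829926-124830225 on the plus strand and the Ccnb2 window at chr9:70421505-70421804 on the minus strand.
Nuf2: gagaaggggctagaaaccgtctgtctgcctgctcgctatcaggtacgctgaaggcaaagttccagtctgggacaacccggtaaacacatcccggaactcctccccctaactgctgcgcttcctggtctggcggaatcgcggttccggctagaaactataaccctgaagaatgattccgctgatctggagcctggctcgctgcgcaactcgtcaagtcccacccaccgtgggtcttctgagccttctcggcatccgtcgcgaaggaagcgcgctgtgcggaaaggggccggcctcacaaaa
Cdca3: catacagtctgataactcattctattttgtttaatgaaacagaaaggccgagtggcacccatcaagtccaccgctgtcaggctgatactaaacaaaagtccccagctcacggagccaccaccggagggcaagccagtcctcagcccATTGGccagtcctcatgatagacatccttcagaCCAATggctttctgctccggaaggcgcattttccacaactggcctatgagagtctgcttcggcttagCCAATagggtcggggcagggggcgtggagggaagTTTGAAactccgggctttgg
Ccnb2: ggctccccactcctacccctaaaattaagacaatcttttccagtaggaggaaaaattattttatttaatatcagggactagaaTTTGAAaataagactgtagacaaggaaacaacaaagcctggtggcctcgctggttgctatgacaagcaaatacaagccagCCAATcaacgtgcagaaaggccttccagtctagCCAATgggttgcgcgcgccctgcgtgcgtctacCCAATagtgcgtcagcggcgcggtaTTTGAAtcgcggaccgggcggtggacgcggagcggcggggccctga

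The Cdca3 window holds 3 CCAAT boxes, whose first bases lie 104, 71 and 4 bases before the start, and 1 CHR match 31 bases after it. The Ccnb2 window holds 3 CCAAT boxes and 2 CHR matches, 1 of them 5 bases after the start. Nuf2, the lowest in WT cells among the members with all 4 signals at or above the floor, has no match to either motif in its window, which says only that these letters are not in it.

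RefSeq windows were found for 36 of the 41 members. Of these, 29 (80.6%) held at least 1 CHR match, against 21.7% of the 27025 genes with a window. A CHR match that begins within 50 bases of the start was present in 27 members of 36, against 6.18% of all genes. CCAAT was present in 29 members (80.6%), against 41.1% of all genes, and 22 members (61.1%) had more than 1, against 13.3%. Both motifs were found in 26 members (72.2%), against 8.61%. The E2F site, searched as TTTGGCGC, TTTCCCGC, TTTGCCGC or TTTCGCGC on both strands, was found only in the Cdk1 window (2.78% of members, against 2.61% of all genes). Matches of different motifs were counted separately where they overlap. A match is a description of the letters and not a bound site.

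**Figure D1:**
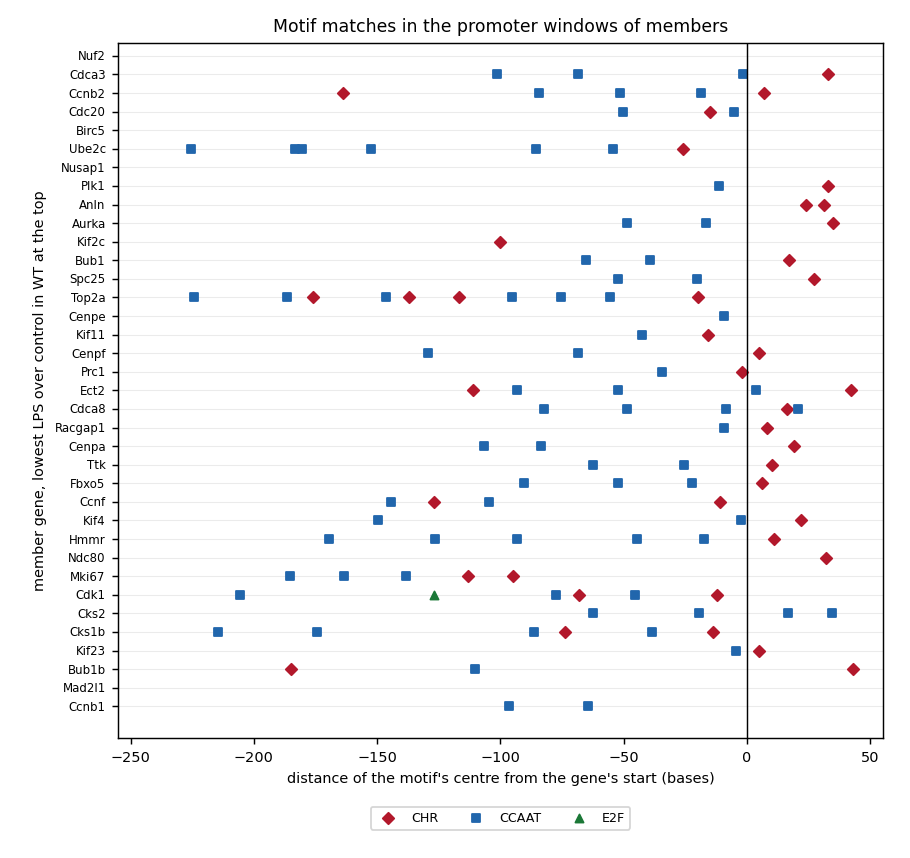
Each row is 1 member with a RefSeq promoter window (the first listed window where a gene has 2), ordered by its LPS over control ratio in WT cells, lowest at the top, with Ccnb1, which has no ratio, at the bottom. The horizontal axis gives the distance in bases of each motif's centre from the annotated start, red for CHR, blue for CCAAT and green for E2F, and most members have a red mark within 50 bases of the start.

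The median log2 ratio of LPS over control in WT cells was -2.21 in the 29 members with a CHR match, which spanned -3.16 to -1.27, and -2.63 in the 6 measured members without one, which spanned -3.21 to -1.19. These ranges overlap. In LXR-DKO cells the medians were -0.68 with and -0.73 without a CHR match.

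Signals are linear intensities as deposited. Values under a floor of 28.9, the median of all signals outside the controls, were raised to it for ratios, so a ratio with such a value is given as "at least". Each gene is represented by its brightest probe set, and ranks among members refer to these probe sets and to ratios with the floor. Probe sets of 1 gene give the only internal error. Over all genes their log2 ratios had a within-gene SD of 0.42 for LPS over control in LXR-DKO cells, 0.29 in WT cells, 0.54 for LXR-DKO over WT with LPS and 0.45 without LPS. Over the members alone it was, in the same order, 0.38 from 18 genes, 0.45 from 11, 0.55 from 11 and 0.39 from 20. The SD over all genes is the one used below.

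On the whole arrays, between 47.8% and 52.6% of probe sets reached the floor. The targeted gene Nr1h3, which encodes LXRα, had signals of 27.0 with LPS and 40.4 without it in LXR-DKO cells, against 54.5 with LPS and 108.6 without it in WT cells. Where its probe set lies relative to the deleted part is not given in the sources used here, so it may check nothing. Control probe sets for 18S ribosomal RNA were highest in WT cells with LPS, the one at its 5′ end reading 69.5 with LPS and 77.4 without it in LXR-DKO cells, against 2025.2 with LPS and 510.6 without it in WT cells. The ratio of 3′ to 5′ control signals lay between 1.11 and 1.28 for Actb and between 0.76 and 0.84 for Gapdh. Xist had signals of 2090.4 and 2750.0 in LXR-DKO cells with and without LPS, against 22.7 and 30.8 in WT cells. The Y-linked genes Eif2s3y, Kdm5d and Uty were at 384.3, 93.2 and 128.6 in LXR-DKO cells with LPS, against 721.0, 98.1 and 291.1 in WT cells with LPS, and without LPS at 279.6, 56.1 and 69.7 in LXR-DKO cells, against 736.6, 126.2 and 300.9 in WT cells. The part of ribosomal RNA and of sex-linked differences in the results below was not tested.

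Over all probe sets outside the controls the median signal was lowest in WT cells with LPS, at 25.9, and highest in LXR-DKO cells with LPS, at 32.9. How often all genes take the orders given next was not computed. All 40 measured members had their lowest signal in WT cells with LPS. In 38 of 40 the highest signal was in LXR-DKO cells without LPS, and for the other 2, Nuf2 and Spc25, it was in WT cells without LPS. LXR-DKO cells with LPS and WT cells without LPS lay between these in 38 of 40, with the LXR-DKO cells higher in 19 of 40 members. These last 2 groups differ in both genotype and LPS. Their signals were within 2-fold of each other for 38 of 40 members. The median log2 ratio of LXR-DKO LPS over WT control was -0.0048, with a range from -1.08 for Nuf2 to 0.94 for Cenpf. The share of all genes within 2-fold between these 2 arrays was not computed, so this count has no background beside it.

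**Figure D2:**
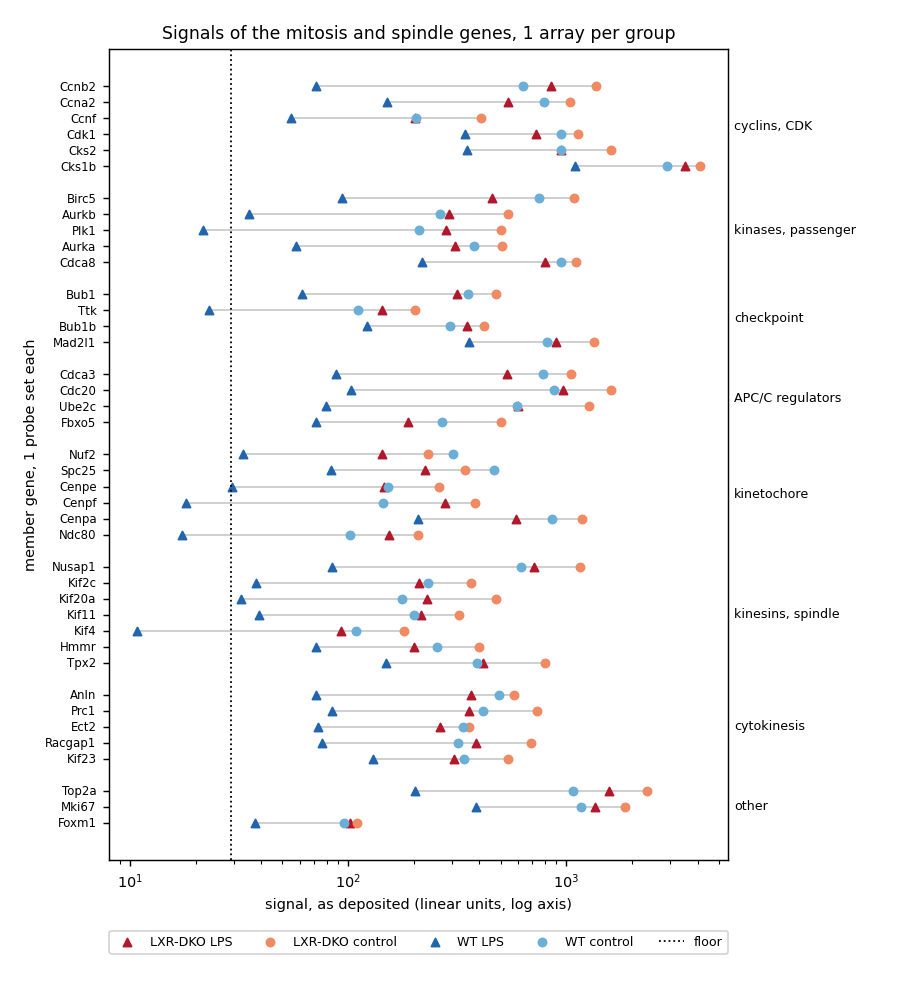
Signals of the 40 measured members (rows, grouped by role) on a log axis, with 1 point per array: red triangles for LXR-DKO LPS, orange circles for LXR-DKO control, dark blue triangles for WT LPS, light blue circles for WT control, and a dotted line at the floor of 28.9. The dark blue triangle is the leftmost point in every row, and 5 of these lie below the floor.

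The first question was how division genes answered LPS in each genotype. In LXR-DKO cells with LPS, 5 of 40 members were at least 2-fold lower than in LXR-DKO control cells and 0 at least 2-fold higher, beside 1.82% and 6.23% of the 11793 genes measured in that comparison. In WT cells, 40 of 40 were at least 2-fold lower with LPS and 0 at least 2-fold higher, beside 4.79% and 2.93% of 11449 genes. Across the members the median log2 ratio was -0.73 in LXR-DKO cells, ranging from -1.42 for Fbxo5 to -0.10 for Foxm1, against a median of 0.02 over all measured genes. In WT cells it was -2.31, ranging from -3.21 for Nuf2 to -1.19 for Mad2l1, against -0.05 over all measured genes. Expressed as the signal left with LPS, members kept a median of 60.3% of the control signal in LXR-DKO cells (37.5% to 93.1%) and of 20.2% in WT cells (10.8% to 43.9%), with values under the floor again raised to it. All 40 members were below 0 in both genotypes. With a floor at the 75th percentile, 177.4, 20 of the 33 members then measured were at least 2-fold lower with LPS in WT cells, beside 150 of 6902 genes. Over the alternatives between 3 and 8 members were so in LXR-DKO cells. The 3 were of 31 members with suffixed probe sets left out, beside 220 of 10253 genes. The 8 were of 40 members, beside 242 of 11478 genes after quantile normalization and 268 of 12127 under hybridisation control scaling. The size of the ratio was larger than the SD between probe sets for 37 of 40 members in LXR-DKO cells and for 40 of 40 in WT cells. The share of all genes past this SD was not computed, so these counts have no background beside them.

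**Figure D3:**
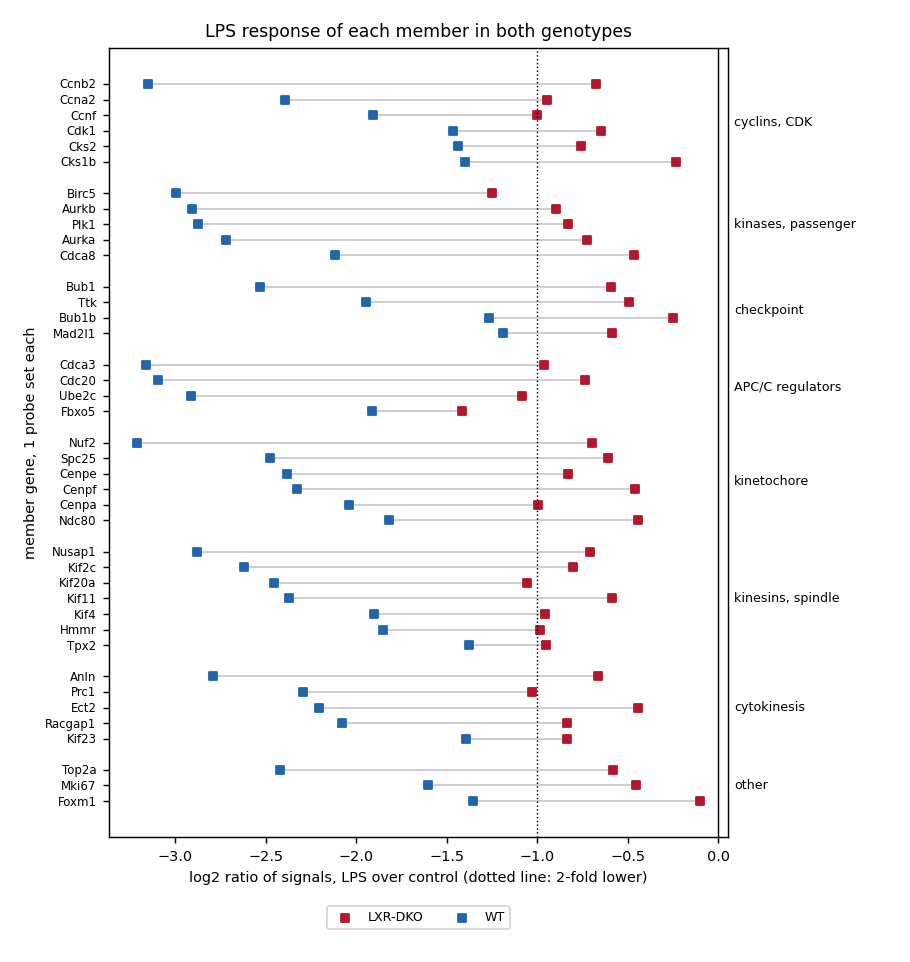
Log2 ratio of signals, LPS over control, for each member (rows, grouped by role), with a red square for LXR-DKO, a blue square for WT and a grey line joining the pair, and a dotted line at 2-fold lower. All blue squares lie left of the dotted line and left of their red partner, and 5 red squares lie left of the line. The WT values of Plk1, Ttk, Cenpf, Ndc80 and Kif4 are limits.

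The second question was how the genotypes differed in each condition. In the LPS cultures, LXR-DKO signals were 2-fold or more above WT signals for 40 of 40 members and 2-fold or more below for 0, beside 17.8% higher and 8.76% lower among 12014 measured genes. In the control cultures this held for 10 of 40 members, with 0 in the other direction, beside 12.7% higher and 9.28% lower among 11728 genes. For LXR-DKO over WT the members' median on the log2 scale was 2.20 with LPS, from 1.08 for Cdk1 to 3.57 for Ccnb2, against 0.15 over all measured genes. The top of this range is not fixed, since Plk1 at 3.29 and Cenpf at 3.27 are lower limits. The count without LPS rests on the scaling. Under 75th percentile scaling it was 3 of 40, beside 1127 of 11671 genes, so the members' share was then below that of all genes. Under scaling to the hybridisation controls it was 17 of 40, beside 2076 of 11833 genes. With the higher floor 19 of 34 members passed 2-fold in the LPS cultures, beside 947 of 7614 genes. Without LPS the median was 0.70, from -0.44 for Spc25 to 1.43 for Kif20a, against 0.05 over all measured genes. Without LPS the size of the ratio was larger than the SD between probe sets for 29 of 40 members. The share of all genes past this SD was not computed. In this comparison 38 of 40 members were above 0, although Foxm1 and Ect2 turned below 0 under 75th percentile scaling and quantile normalization. Cenpa did so by the median over its probe sets.

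**Figure D4:**
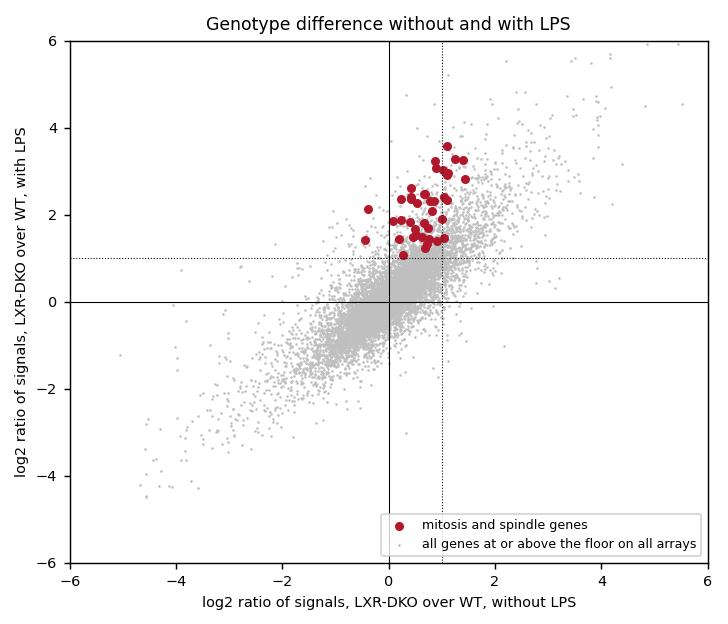
Log2 ratio of signals, LXR-DKO over WT, without LPS (horizontal) and with LPS (vertical), with members in red and, in grey, the 9623 genes that reached the floor on each of the 4 arrays, 2 of which lie outside the axes at 6. Dotted lines mark 2-fold higher. All red points lie above the horizontal dotted line, and 10 of them also lie right of the vertical one.

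Subtracting the WT log2 LPS ratio from the LXR-DKO one gives the difference of the responses, which was above 0 for 40 of 40 members. It was at least 1, a 2-fold difference, for 31 of 40 and at most -1 for 0 of 40, beside 7.69% and 1.99% of the 10764 genes measured in both genotypes. It was at least 1 for 10 of 33 members with the higher floor, beside 202 of 6432 genes. With suffixed probe sets left out it was so for 17 of 30 members, beside 688 of 9228 genes. The median was 1.5, against 0.09 over all those genes, and members ranged from 0.42 for Tpx2 to 2.51 for Nuf2. At least 4-fold differences, a log2 value of 2, were seen for 8 of 40 members, and the share of all genes past this value was not computed. The comparisons share arrays: the signal in WT cells with LPS enters the WT response, the genotype difference with LPS and this difference. Across the 35 members that reached the floor on each of the 4 arrays, the log2 LPS responses of the genotypes, which share no array, correlated with Pearson's r = 0.33 and Spearman's rho = 0.27. Across all 9623 such genes these were 0.52 and 0.43. The members' responses were all below 0, a narrower range than that of all genes, so their coefficients are not compared with these. Genes are not independent replicates, so these are descriptions.

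The mitotic cyclins, their kinase and its small subunits, 6 measured members, had median log2 LPS ratios of -0.72 in LXR-DKO and -1.69 in WT cells. Ccnb2, encoding cyclin B2, had signals of 853.2 with LPS and 1362.8 without it in LXR-DKO cells, against 71.6 with LPS and 635.2 without it in WT cells. That is 1.60-fold lower with LPS in LXR-DKO cells and 8.87-fold lower in WT cells, and an 11.9-fold higher signal in LXR-DKO than in WT cells with LPS. Ccna2, encoding cyclin A2, which acts in S phase and early mitosis, stood at 538.0 with LPS and 1037.6 without it in LXR-DKO cells, against 150.7 and 790.9 in WT cells with and without LPS. Its log2 LPS ratio was -0.95 in LXR-DKO and -2.39 in WT cells. Ccnf, whose product is the F-box cyclin of a ubiquitin ligase, measured 203.5 with LPS and 406.8 without it in LXR-DKO cells and 54.5 with LPS and 204.4 without it in WT cells. The kinase gene Cdk1 was at 725.3 and 1137.6 in LXR-DKO cells with and without LPS and at 344.2 and 950.4 in WT cells with and without LPS, and its log2 ratio of 1.08 between genotypes with LPS was the lowest of all members. Cyclins B2 and A2 thus lay further apart between the genotypes with LPS, at 3.57 and 1.84, than their kinase.

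Cks1b and Cks2 encode paralogous small subunits of cyclin-dependent kinases. The Cks1b signal was 3488.3 with LPS and 4099.7 without it in LXR-DKO cells, against 1102.6 with LPS and 2905.6 without it in WT cells. For Cks2 it was 943.6 with LPS and 1599.2 without it in LXR-DKO cells, against 349.1 with LPS and 945.7 without it in WT cells. The paralogs had like ratios in WT cells, -1.40 for Cks1b and -1.44 for Cks2. In LXR-DKO cells Cks1b was at -0.23 and Cks2 at -0.76, but their second probe sets gave the opposite order, -0.74 for Cks1b and -0.18 for Cks2, so no difference between the paralogs is read from these values.

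The other mitotic kinases and the chromosomal passenger subunits, 5 members, had medians of -0.83 in LXR-DKO and -2.87 in WT cells. Birc5, encoding survivin, a passenger subunit, read 455.3 with LPS and 1081.8 without it in LXR-DKO cells, against 93.8 with LPS and 748.9 without it in WT cells. It was 2.38-fold lower with LPS in LXR-DKO cells and 7.98-fold lower in WT cells. The passenger kinase gene Aurkb gave 289.1 with LPS and 538.0 without it in LXR-DKO cells and 35.2 with LPS and 263.8 without it in WT cells. Aurka, the spindle pole kinase gene, was at 307.7 with LPS and 508.3 without it in LXR-DKO cells and at 57.7 with LPS and 379.5 without it in WT cells. Their WT ratios were -2.91 and -2.72, and their LXR-DKO ratios -0.90 and -0.72. Plk1, whose kinase acts from mitotic entry to cytokinesis, had signals of 282.0 and 501.5 in LXR-DKO cells with and without LPS, against 21.5 and 212.0 in WT cells with and without LPS. The WT value with LPS lay below the floor, so Plk1 was at least 7.34-fold lower with LPS in WT cells and at least 9.76-fold higher in LXR-DKO than in WT cells with LPS. Cdca8, encoding the passenger subunit borealin, measured 798.2 with LPS and 1102.9 without it in LXR-DKO cells and 218.1 with LPS and 945.8 without it in WT cells. In this group the difference of the responses lay between 1.65 for Cdca8 and at least 2.04 for Plk1, although other probe sets of Cdca8 gave 0.97 and 2.58.

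The 4 spindle checkpoint genes had medians of -0.54 in LXR-DKO and -1.61 in WT cells. Bub1, a checkpoint kinase gene, was at 315.2 with LPS and 475.9 without it in LXR-DKO cells, against 61.3 with LPS and 354.5 without it in WT cells. Bub1b, encoding BUBR1, gave 351.6 with LPS and 418.7 without it in LXR-DKO cells and 122.5 with LPS and 294.5 without it in WT cells, and its LXR-DKO ratio was -0.25 by this probe set and -1.01 by another that reached the floor on each array. The signal of Mad2l1, encoding the checkpoint effector MAD2, was 897.8 with LPS and 1347.1 without it in LXR-DKO cells and 359.0 with LPS and 818.6 without it in WT cells. Mad2l1 thus kept 43.9% of its control signal in WT cells, the highest such share among the members. Ttk, encoding the kinase MPS1, was at 143.3 and 201.6 in LXR-DKO cells with and without LPS and at 22.9, below the floor, and 111.4 in WT cells with and without LPS. Bub1 at -2.53 and Mad2l1 at -1.19 were the ends of the range in WT cells, while in LXR-DKO cells both were at -0.59.

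The regulators of the anaphase-promoting complex, with Cdca3, included 3 of the 6 members with the lowest WT ratios. Cdc20, which encodes the activator of the complex in mitosis, had signals of 965.7 with LPS and 1608.6 without it in LXR-DKO cells, against 102.6 with LPS and 875.4 without it in WT cells. It was 1.67-fold lower with LPS in LXR-DKO cells and 8.53-fold lower in WT cells, where a second probe set gave a log2 ratio of -2.20 in place of -3.09. Ube2c, encoding the complex's ubiquitin-conjugating enzyme, was at 599.4 and 1273.3 in LXR-DKO cells with and without LPS and at 79.2 and 596.8 in WT cells with and without LPS. Cdca3, whose product takes part in the degradation of the kinase WEE1 at mitotic entry, read 537.6 with LPS and 1046.4 without it in LXR-DKO cells and 87.9 with LPS and 785.7 without it in WT cells. Fbxo5, encoding EMI1, an inhibitor of the complex, differed from these. Its signals were 189.0 with LPS and 504.3 without it in LXR-DKO cells, against 71.6 with LPS and 270.1 without it in WT cells. The Fbxo5 ratio of -1.42 was the lowest of all members in LXR-DKO cells, its WT ratio was -1.92, and its difference of the responses, 0.50, was among the smallest.

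The 6 centromere and kinetochore genes had medians of -0.65 in LXR-DKO and -2.35 in WT cells, and all 6 had a difference of the responses of at least 1. Nuf2 and Ndc80 encode partners in the complex that grips microtubules, and Spc25 another subunit of it. Nuf2 measured 143.0 with LPS and 231.6 without it in LXR-DKO cells, against 32.8 with LPS and 303.2 without it in WT cells, 9.24-fold lower with LPS in WT cells. Spc25 was at 224.4 with LPS and 342.9 without it in LXR-DKO cells and at 83.5 with LPS and 464.6 without it in WT cells. These are the members that were lower in LXR-DKO than in WT cells without LPS, at -0.39 and -0.44, against an SD between probe sets of 0.45, and a second, dim probe set of Spc25 gave 0.43. Ndc80, by contrast, stood at 153.3 and 208.7 in LXR-DKO cells with and without LPS, against 17.3, below the floor, and 101.9 in WT cells with and without LPS, and was 2.05-fold higher in LXR-DKO cells without LPS.

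Cenpa, encoding the histone variant that marks centromeres, gave 589.3 with LPS and 1176.1 without it in LXR-DKO cells and 208.8 with LPS and 857.8 without it in WT cells. Cenpe, a kinetochore motor gene, was at 146.3 and 260.1 in LXR-DKO cells with and without LPS and at 29.2 and 152.3 in WT cells with and without LPS. Cenpf, encoding a large kinetochore protein of G2 and mitosis, had signals of 277.9 and 382.2 in LXR-DKO cells with and without LPS, against 18.0, below the floor, and 144.9 in WT cells with and without LPS. It was 2.64-fold higher in LXR-DKO than in WT cells without LPS and at least 9.62-fold higher with LPS.

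The kinesins and spindle microtubule proteins, 7 members, had medians of -0.95 in LXR-DKO and -2.37 in WT cells. Kif11, encoding the motor that separates spindle poles, was at 214.9 with LPS and 322.8 without it in LXR-DKO cells, against 38.9 with LPS and 200.9 without it in WT cells. Kif20a, a motor gene of the central spindle, read 229.6 with LPS and 477.6 without it in LXR-DKO cells and 32.4 with LPS and 177.3 without it in WT cells. Its genotype ratio without LPS, 2.69-fold, was the highest of all members. Kif2c, whose product takes microtubules apart at centromeres, measured 210.3 with LPS and 366.5 without it in LXR-DKO cells and 37.9 with LPS and 232.8 without it in WT cells. The chromokinesin gene Kif4 gave 93.1 and 180.9 in LXR-DKO cells with and without LPS and 10.8, below the floor, and 108.1 in WT cells with and without LPS. By these probe sets the 4 motor genes were between 1.5-fold and 2.08-fold lower with LPS in LXR-DKO cells, and between 5.16-fold and 6.14-fold lower in WT cells apart from Kif4, for which the limit was at least 3.74-fold. The upper value is that of Kif2c, whose log2 ratio in WT cells was -2.62 by its brightest probe set and -1.56 and -1.44 by its other probe sets with all signals above the floor. In LXR-DKO cells another probe set of Kif11 gave -1.46, against -0.59 for its brightest.

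Nusap1, a spindle-associated protein gene, had signals of 708.4 with LPS and 1156.9 without it in LXR-DKO cells, against 84.6 with LPS and 621.7 without it in WT cells. Hmmr, encoding a hyaluronan receptor that also binds the spindle, was at 200.5 with LPS and 396.4 without it in LXR-DKO cells and at 71.0 with LPS and 255.9 without it in WT cells. Tpx2, encoding the activator of Aurora A kinase on the spindle, measured 413.6 and 801.4 in LXR-DKO cells with and without LPS and 149.6 and 389.0 in WT cells with and without LPS. Nusap1 and Tpx2 stood at opposite ends of this group, with differences of the responses of 2.17 and 0.42. The Tpx2 probe sets disagreed: 2 dim ones were at 0.38 and 0.05 for LPS over control in LXR-DKO cells, against -0.95 for the brightest.

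The 5 cytokinesis genes had medians of -0.83 in LXR-DKO and -2.21 in WT cells. Anln, encoding anillin, the scaffold of the contractile ring, was at 365.5 with LPS and 578.8 without it in LXR-DKO cells, against 71.3 with LPS and 493.9 without it in WT cells. Ect2, whose product activates RhoA at the division plane, gave 264.2 with LPS and 359.0 without it in LXR-DKO cells and 73.1 with LPS and 337.6 without it in WT cells. Both genes had nearly the same signal in the genotypes without LPS, with log2 ratios of 0.23 and 0.09, and were 5.13-fold and 3.61-fold higher in LXR-DKO cells with LPS. Racgap1 and Kif23 encode the partners that form centralspindlin, the complex that recruits ECT2. Racgap1 read 384.0 with LPS and 686.3 without it in LXR-DKO cells and 75.5 with LPS and 319.2 without it in WT cells. Kif23 read 304.7 with LPS and 543.5 without it in LXR-DKO cells and 129.4 with LPS and 339.7 without it in WT cells. By these probe sets the partners had like ratios in LXR-DKO cells, -0.84 and -0.83, and unlike ones in WT cells, -2.08 and -1.39. A second Kif23 probe set gave -1.25 in LXR-DKO and -1.64 in WT cells. A second Racgap1 probe set gave -0.78 in LXR-DKO cells and, with its WT LPS signal below the floor, -2.68 or lower in WT cells. The likeness in LXR-DKO cells therefore depends on the probe set. Prc1, encoding the protein that bundles microtubules of the central spindle, was at 359.5 with LPS and 734.0 without it in LXR-DKO cells and at 84.7 with LPS and 415.3 without it in WT cells.

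Top2a, Mki67 and Foxm1 complete the members. Top2a, encoding the topoisomerase that untangles sister chromatids, had signals of 1562.9 with LPS and 2338.1 without it in LXR-DKO cells, against 201.7 with LPS and 1079.6 without it in WT cells, and was 7.75-fold higher in LXR-DKO than in WT cells with LPS. Mki67, encoding Ki-67, the antigen used to count dividing cells, was at 1354.7 with LPS and 1855.7 without it in LXR-DKO cells and at 384.7 with LPS and 1169.1 without it in WT cells. Mki67 was thus 1.37-fold lower with LPS in LXR-DKO cells and 3.04-fold lower in WT cells. Foxm1, which encodes the transcription factor for many of these genes, gave 101.8 with LPS and 109.3 without it in LXR-DKO cells and 37.5 with LPS and 96.0 without it in WT cells. Its LXR-DKO ratio was -0.10 by this probe set and -0.46 and -0.77 by others.

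Most probe sets of the members went the same way as the brightest. For LPS over control, 71 of the 73 probe sets that reached the floor in LXR-DKO cells and 69 of 69 in WT cells were below 0. For LXR-DKO over WT, 66 of 66 were above 0 with LPS and 68 of 75 without it. The difference of the responses was below 0 for 4 of 67 probe sets, all of them with at least 1 array below the floor. These were secondary probe sets of Ccnf at -0.33, Cenpf at -1.31, Spc25 at -0.43 and Top2a at -0.05.

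Other cell cycle lists were set beside the members, and the plot of the cell cycle lists shows each of their genes. Of all measured genes, 1.82% were at least 2-fold lower with LPS in LXR-DKO cells and 4.79% in WT cells. With LPS, 17.8% were at least 2-fold higher and 8.76% at least 2-fold lower in LXR-DKO than in WT cells. Of 80 other mitotic genes, 3 of 76 measured were at least 2-fold lower with LPS in LXR-DKO cells and 55 of 77 in WT cells, with medians of -0.52 and -1.46. Over the alternatives the WT median of this list lay between -1.70 and -0.62, and its median for LXR-DKO over WT with LPS, 1.70 as reported, between 0.36 and 2.0. With LPS the LXR-DKO signal was 2-fold or more above the WT signal for 57 of 76 and 2-fold or more below it for 1. Ncapd2, a condensin subunit gene, was at 427.3 with LPS and 679.8 without it in LXR-DKO cells, against 36.3 with LPS and 290.0 without it in WT cells. Nek2, a centrosomal kinase gene, measured 227.1 with LPS and 300.0 without it in LXR-DKO cells and 32.5 with LPS and 201.4 without it in WT cells. Cenpn, a centromere gene, had the largest difference of the responses in this list, 3.11 by its brightest probe set, with 345.9 and 241.0 in LXR-DKO cells with and without LPS and 54.7 and 328.9 in WT cells with and without LPS.

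The DNA replication list had medians of -0.44 in LXR-DKO cells, where 2 of 39 were at least 2-fold lower with LPS, and of -1.30 in WT cells, where 23 of 38 were. Over all measured genes these shares were 1.82% and 4.79%. Over the alternatives the WT median lay between -1.38 and -0.82. Mcm7, a helicase subunit gene, stood at 1809.7 with LPS and 2464.5 without it in LXR-DKO cells, against 171.5 with LPS and 1084.6 without it in WT cells. The ribonucleotide reductase genes Rrm1 and Rrm2 had differences of the responses of 2.0 and 1.84. The next list held 17 genes for subunits and constitutive partners of the anaphase-promoting complex. Its partners were the co-activator gene Fzr1, the ubiquitin-conjugating enzyme gene Ube2s and Mad2l1bp. In either genotype 0 of 17 were at least 2-fold lower or higher with LPS. Of all measured genes, 1.82% were lower and 6.23% higher by this measure in LXR-DKO cells, and 4.79% and 2.93% in WT cells. With 17 genes, 0 is not read as a departure from these shares. The list medians were 0.02 in LXR-DKO and -0.16 in WT cells, and that of LXR-DKO cells lay between -0.12 and 0.07 under the alternatives. The highest difference of the responses in this list was 0.54, for Anapc15 and Anapc11.

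In the E2F, RB family and MuvB list, 1 of 21 was at least 2-fold lower with LPS in LXR-DKO and 2 of 21 in WT cells, with medians of -0.12 and -0.30. Over all measured genes these shares were 1.82% and 4.79%, and counts this small are not read as departing from them. E2f1, an activator of S phase genes, was lower with LPS in LXR-DKO cells but not in WT cells, with 152.1 and 282.3 in LXR-DKO cells with and without LPS and 236.8 and 226.8 in WT cells with and without LPS. E2f2, another activator, named after its values were seen, resembled the members, with 236.9 and 337.2 in LXR-DKO cells with and without LPS and 25.5, below the floor, and 199.0 in WT cells with and without LPS. The pocket protein gene Rbl2, a DREAM subunit, was higher in LXR-DKO cells, at 1247.8 with LPS and 940.0 without it, than in WT cells, at 285.7 with LPS and 334.2 without it. The MuvB gene Lin9 was dim throughout, at 51.2 and 46.7 in LXR-DKO cells with and without LPS and 40.0 and 62.4 in WT cells with and without LPS.

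The G1 cyclins did not move as 1 group. Ccnd2, encoding cyclin D2, had signals of 6748.4 with LPS and 3877.9 without it in LXR-DKO cells, against 947.9 with LPS and 1227.1 without it in WT cells. Ccnd1 was at 669.2 with LPS and 943.0 without it in LXR-DKO cells and at 121.0 with LPS and 533.2 without it in WT cells. Ccnd3 had log2 LPS ratios of -0.60 in LXR-DKO and -0.77 in WT cells and was higher in LXR-DKO cells at 1.83 with LPS and 1.66 without it. Ccne2 resembled the members, at -0.52 in LXR-DKO and -2.19 in WT cells, while Ccne1 was at -0.89 in LXR-DKO and -0.42 in WT cells. The kinase genes Cdk2, Cdk4 and Cdk6 had LPS ratios of -0.26, -0.55 and 0.30 in LXR-DKO cells, against -0.93, -0.51 and 0.07 in WT cells. The phosphatase gene Cdc25a was at -0.12 in LXR-DKO and -0.27 in WT cells, and Myc at -1.14 in LXR-DKO and -1.75 in WT cells.

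Among inhibitors of cyclin-dependent kinases, Cdkn2b, encoding p15, was higher with LPS in both genotypes, with 1089.8 and 169.5 in LXR-DKO cells with and without LPS and 218.6 and 88.2 in WT cells with and without LPS. Cdkn2c, encoding p18, had 450.5 and 804.8 in LXR-DKO cells with and without LPS, against 54.9 and 230.9 in WT cells with and without LPS. Cdkn1a, encoding p21, was at 3842.7 and 2929.6 in LXR-DKO cells with and without LPS and at 1817.1 and 2007.7 in WT cells with and without LPS. For Cdkn1b, encoding p27, the signals were 573.5 and 528.3 in LXR-DKO cells and 173.5 and 198.2 in WT cells with and without LPS. These 4 inhibitor genes were higher in LXR-DKO than in WT cells with and without LPS. Cdkn1c was lower there, at 14.7 and 17.1 in LXR-DKO cells, both below the floor, and 58.1 and 79.9 in WT cells with and without LPS. Cdkn2d was 0.83 higher in LXR-DKO cells with LPS and 0.89 without it on the log2 scale, and Cdkn2a was dim, at 34.3 and 11.8 in LXR-DKO cells with and without LPS and 19.3 and 29.1 in WT cells with and without LPS.

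**Figure D5:**
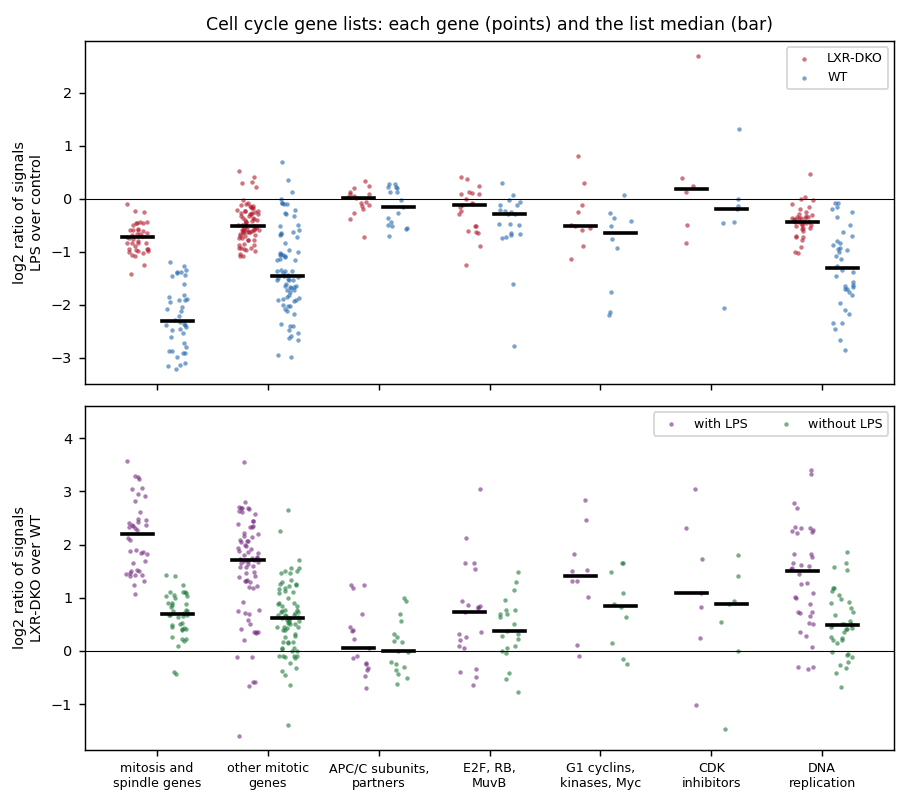
Log2 ratios of signals for the members and 6 other cell cycle lists, with points for genes and black bars for list medians. The upper panel shows LPS over control in LXR-DKO (red) and WT (blue) cells, and the lower panel LXR-DKO over WT with LPS (purple) and without LPS (green). The medians for mitosis and spindle genes are -0.73 and -2.31 in the upper panel and 2.20 and 0.70 in the lower one, while those of the anaphase-promoting complex (APC/C) subunits and partners lie near 0.

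Markers of DCs and of other marrow cells also differed between the genotypes. All 11 DC markers reached the floor, with summed signals of 44274.4 with LPS and 42268.3 without it in LXR-DKO cells, against 20368.3 with LPS and 22435.4 without it in WT cells. Of their brightest, Cd74 had log2 ratios of LXR-DKO over WT of 0.43 with LPS and 0.40 without it, and H2-Aa was at 1.5 with LPS and 0.94 without it. Itgax, which encodes CD11c and was named after its values were seen, went the other way, at 3848.1 with LPS and 4404.5 without it in LXR-DKO cells, against 6093.0 with LPS and 5012.2 without it in WT cells. Neutrophil and granulocyte precursor markers, 10 of 10 reaching the floor and led by S100a8 and S100a9, summed to 23758.9 with LPS and 19364.0 without it in LXR-DKO cells, against 3320.8 with LPS and 2184.0 without it in WT cells. For mast cells, basophils and eosinophils the 7 markers with a probe set, led by Siglecf and Cpa3, summed to 2145.4 with LPS and 1511.3 without it in LXR-DKO cells and to 171.5 with LPS and 346.6 without it in WT cells. B cell markers, led by Ms4a1 and Cd79b, summed to 1789.4 with LPS and 545.2 without it in LXR-DKO cells and to 116.4 with LPS and 127.2 without it in WT cells, where 4 of 6 were below the floor with and without LPS.

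Macrophage markers, 7 of them and led by Csf1r and Adgre1, summed to 23290.5 with LPS and 32790.9 without it in LXR-DKO cells, against 17488.0 with LPS and 13239.2 without it in WT cells. Csf1r and Adgre1 themselves were lower in LXR-DKO than in WT cells with LPS, at -0.47 and -0.46 on the log2 scale. The complement genes C1qa, C1qb and C1qc, named after their values were seen, were at 2680.3, 4087.0 and 2566.9 in LXR-DKO cells with LPS, against 1.5, 1.8 and 0.8 in WT cells with LPS, and without LPS at 5335.4, 6280.6 and 5386.1 in LXR-DKO cells, against 18.0, 108.4 and 41.4 in WT cells. Progenitor markers, 8 of 9 reaching the floor and led by Sox4 and Cd34, summed to 1883.9 with LPS and 1898.8 without it in LXR-DKO cells and to 1729.5 with LPS and 1372.2 without it in WT cells. Stromal markers, led by Col1a2 and Lepr, summed to 531.2 with LPS and 345.9 without it in LXR-DKO cells and to 491.8 with LPS and 657.8 without it in WT cells. T and NK cell markers, with Cd8a and Cd3e the brightest, reached the floor in 3 of 5 cases, and erythroid markers, with Epor and Klf1, in 1 of 4, and neither list summed to more than 122.0 on any array. No marker with a probe set was at exactly 0. The part of these cell types in the mitotic gene results was not tested.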

How the data were processed

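The 4 groups of mouse DCs were measured with 1 array each, and no replicate, batch or pooling is given in the labels. The authors deposited intensity values on a linear scale, computed with MAS5 per the submitters' processing notes, with version and settings not given in the sources used here. The mean signal without the 2% at each end was 200.0 on every array. Gene names came from GEO's platform annotation, which gives 34945 of 45037 probe sets a single symbol. Values under the pooled median, 28.9, were raised to it, and a gene counted as measured when at least 1 array of the comparison reached it. Counts use 2-fold. Counting was tested on simulated data, with changes placed only in genes well above the floor on all arrays. It was therefore not tested for genes that start near the floor. Python 3.11.15, pandas 2.3.3 and numpy 2.4.6 were used. No p-value was computed. 

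Named genes are all 40 members, up to 3 genes per pathway list with the largest difference of the responses and all 4 signals at or above the floor, all G1 cyclin and inhibitor genes, and the 2 brightest of each marker list. Members and lists were chosen with earlier results of these data known. Motifs were counted in RefSeq windows from 250 bases before to 50 after each start. Protein sequences were not used here. Alternatives were 9 settings of scaling, floor and probe set.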

Additional observations from a re-analysis of the deposited data

Results flagged for a closer look

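For 3 genes of the neighbouring cell cycle lists the LPS ratio had opposite signs in the genotypes, in each case beyond the spread between probe sets. With 1 array per group this difference was not tested. Ccnd2 had a log2 LPS ratio of 0.80 in LXR-DKO and -0.37 in WT cells, a difference of 1.17. All 7 of its probe sets were above 0 in LXR-DKO cells, from 0.30 to 1.26, and below 0 in WT cells, from -0.55 to -0.09. Gins3, a replication gene, was at 0.46 in LXR-DKO and -0.81 in WT cells, a difference of 1.27, and its second probe set was at 0.10 and -0.86. Cenpn was at 0.52 in LXR-DKO and -2.59 in WT cells, a difference of 3.11, but its second probe set was at -0.30 in LXR-DKO and -1.96 in WT cells, so its direction in LXR-DKO cells depends on the probe set. By its brightest probe set, no member of the mitosis and spindle list had opposite signs in the genotypes. The dim probe sets of Tpx2 at 0.38 and 0.05 in LXR-DKO cells did, at -0.50 and -0.45 in WT cells.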

How the results depend on the processing

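No paired analysis was possible because each group has 1 array. Of the recomputed medians and counts of members, 122 stayed near the reported value and 13 moved, and no median changed sign. A median was called near when it shifted by less than the SD between probe sets. The 122 include counts that were 0 under every setting, and counts that went from 31 to 25 or from 10 to 7. With the floor at the 75th percentile, 177.4, most WT LPS signals are raised to it and fewer members are measured. The median WT response was then -1.23, with 20 of 33 members at least 2-fold lower, beside 150 of 6902 genes. For LXR-DKO over WT with LPS the median was 1.06, with 19 of 34 higher, beside 947 of 7614 genes. For the difference of the responses it was 0.60, with 10 of 33 members at 1 or more, beside 202 of 6432 genes. With probe sets whose name carries a suffix left out, the WT median was -1.91. Then 3 of 31 members were at least 2-fold lower with LPS in LXR-DKO cells, beside 220 of 10253 genes. A difference of the responses of at least 1 was seen for 17 of 30 members, beside 688 of 9228 genes. Members at least 2-fold lower with LPS in LXR-DKO cells were 8 after quantile normalization, beside 242 of 11478 genes, and 8 under hybridisation control scaling, beside 268 of 12127 genes. Members at least 2-fold higher in LXR-DKO cells without LPS were 3 under 75th percentile scaling and 17 under hybridisation control scaling, so this count rests on the scaling. The members' share was below that of all genes, 1127 of 11671, under the first scaling and above it, 2076 of 11833, under the second. For this comparison the median of all genes was -0.12 and 0.26 under these scalings, against 0.05 as reported, and with LPS -0.11 and 0.43, against 0.15. Among all genes past 2-fold, the share higher with LPS in WT cells was 38.0%, or 29.3% to 50.6% under these scalings. The share higher in LXR-DKO cells with LPS was 67%, or 47.1% to 83.3%, and without LPS 57.7%, or 44.1% to 72.8%, under the same scalings. The floor at the 75th percentile turned the difference of the responses below 0 for 7 of 33 members, and leaving out suffixed probe sets did so for Top2a and Spc25. The number of arrays limits every value here.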

Other observations

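Progenitor genes of the marker list did not follow the mitotic genes as a list. Cd34 had signals of 503.6 with LPS and 975.2 without it in LXR-DKO cells, against 16.8 with LPS and 49.4 without it in WT cells. Myb was at 206.7 with LPS and 209.6 without it in LXR-DKO cells and at 13.7 with LPS and 43.3 without it in WT cells. Sox4 went the other way, at 365.3 with LPS and 136.9 without it in LXR-DKO cells and at 1271.1 with LPS and 824.5 without it in WT cells. Kit, the stem cell factor receptor gene, stood at 183.6 with LPS and 49.3 without it in LXR-DKO cells, against 63.6 with LPS and 92.3 without it in WT cells. Cd34, Myb and Kit were named after their values were seen.

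Mybl2, encoding B-MYB, the partner of the MuvB core in dividing cells, was also named after its values were seen. Its signals were 84.0 with LPS and 103.3 without it in LXR-DKO cells, against 12.2 with LPS and 46.8 without it in WT cells.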
